A study of Mus musculus with 6 samples.

Results

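Interferon response genes are genes whose transcription rises when interferons bind their receptors on a cell. The 42 genes described here are a set of type I and type II interferon-induced mouse genes, chosen by symbol from the 45513 identifiers of the deposited gene count table, and all 42 were found in it. They were followed in keratinocytes isolated from the skin of 3 Lama3 knockout mice and 3 control mice on a C57BL/6 background. Lama3 encodes the alpha chain of laminin 332, which anchors basal keratinocytes to the basement membrane. The knockout mice carried 2 floxed Lama3 alleles, with loxP sites around exons 50 to 53, and a tamoxifen-dependent Cre recombinase (CreERT) under the keratin 14 promoter. The design text gives the controls 1 floxed and 1 wild type allele with the same Cre, whereas their genotype label reads wild type. Per the design text the Cre was activated by chow with 400 mg tamoxifen citrate per kg. The keratin 14 promoter drives expression in basal keratinocytes. Age and time on tamoxifen are not given in the labels.

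Total counts lay between 20126395 and 28473479 per library. Lama3 was lower in the 3 knockout libraries, at 97.3, 98.9 and 79.2 CPM (counts scaled to a common library total), than in the 3 controls, at 141, 142 and 114 CPM. Its log2 fold change was -0.53 (SE 0.14, adjusted p = 0.0215 from the quasi-likelihood test of edgeR, corrected by Benjamini and Hochberg's method across the genes tested). A gene is called higher or lower where the adjusted p is under 0.05. The deposited counts cover the whole gene, so they do not show the deleted exons on their own. Lama3 was no longer called when control 1 (0.0620), control 2 (0.0584) or knockout 1 (0.0551) was left out. The keratinocyte markers Krt5 and Krt14 were present in every library, at 6313 to 9664 and 3707 to 5291 CPM. The female transcript Xist was counted 21266 to 36549 times in control 1, knockout 1 and knockout 2 and 9 to 43 times in the other libraries, so the groups differ in their mix of sexes. Mitochondrially encoded genes held 4.87% to 9.96% of the counts in controls, with the highest share in control 3, and 2.53% to 4.32% in knockouts.

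Type I interferons (alpha, beta, kappa and others) signal through the receptor of Ifnar1 and Ifnar2, and interferon gamma, the type II interferon made mainly by T and NK cells, through Ifngr1 and Ifngr2. Janus kinases bound to these receptors then activate transcription factors. A complex that holds Stat2 and Irf9 binds the interferon-stimulated response element (ISRE), and the gamma-activated site (GAS) serves the response to interferon gamma. The induced proteins sense viral nucleic acids, block viral replication, attack intracellular pathogens or attract T cells. In mouse epidermis, which holds many gamma-delta T cells and Langerhans cells, such genes are known to be expressed at low levels without infection.

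The sequences before the RefSeq gene starts hold, in part of the genes, matches to the elements these factors bind. RefSeq promoter windows of GRCm38.p6 were matched by symbol for 30 of the 42 genes, and their 250 bases before the start were searched on both strands. GAAA, any 2 bases and GAAA again (the ISRE core) occurred in 16 of the 30 genes, against 3.46% of all genes with a window. The letters TTCNNNGAA (the GAS core, which reads alike on both strands) occurred in 8 of 30, against 8.13% of all genes. Both occurred in 5 genes, and the matches overlapped in 1 of them, Bst2. Printed below are 100-base stretches, 5′ to 3′ on the gene's strand, of the 5 genes that fell in the knockouts and held an ISRE match, and of Samhd1, which rose and held a GAS match only. Capitals mark the matches.
Isg15, chr4:156200836-156200935, minus strand: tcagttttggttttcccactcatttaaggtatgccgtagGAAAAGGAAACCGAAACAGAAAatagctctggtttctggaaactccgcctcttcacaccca
Oas1a, chr5:120907526-120907625, minus strand: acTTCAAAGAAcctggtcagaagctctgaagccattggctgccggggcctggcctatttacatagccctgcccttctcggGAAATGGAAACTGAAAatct
Irgm1, chr11:48871421-48871520, minus strand: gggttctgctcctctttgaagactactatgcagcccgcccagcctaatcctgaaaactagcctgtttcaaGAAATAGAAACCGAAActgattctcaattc
Cxcl10, chr5:92349040-92349139, minus strand: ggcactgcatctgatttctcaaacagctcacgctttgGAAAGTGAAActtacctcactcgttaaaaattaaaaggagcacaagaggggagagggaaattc
Gbp5, chr3:142496724-142496823, plus strand: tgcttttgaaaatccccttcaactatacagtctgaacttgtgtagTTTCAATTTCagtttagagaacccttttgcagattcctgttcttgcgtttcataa
Samhd1, chr2:157135247-157135346, minus strand: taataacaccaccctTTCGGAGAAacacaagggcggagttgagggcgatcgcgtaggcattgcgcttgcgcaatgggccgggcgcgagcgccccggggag
Isg15 shows 3 ISRE matches that run into each other, and Irgm1 and Oas1a each show 2 that share bases. The stretch of Oas1a also holds a GAS match, near its 5′ end. Gbp5 has 2 GAS matches outside the stretch shown. The gene spans of GENCODE M21, which gave the other gene positions here, begin farther upstream for Gbp5, Irgm1 and Samhd1. The stretches of Gbp5 and Irgm1 lie wholly inside those spans, and that of Samhd1 partly. An ISRE match was found in 5 of the 10 genes with a window that fell, in 9 of the 15 that were not called, in 2 of the 3 that were not tested and in 0 of the 2 that rose.

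More of the interferon response genes fell than rose in the knockouts. Of the 42 genes, 39 had enough counts to be tested, and of these 16 fell, 3 rose and 20 were not called. Over all 15513 genes tested, 18.8% fell and 17.4% rose. The median log2 fold change of the 39 was -0.77, against -0.02 for all genes tested, and 35 of the 39 values were negative. In 19 genes all 3 knockouts lay below all 3 controls and in 3 all lay above, against 26.5% and 25.2% of all genes tested. The genes that fell ranged from Ifi27l2a, 16.7-fold higher in controls, to Parp14, 1.58-fold higher in controls. Those that rose were Samhd1, Trim25 and Ly6e. With upper-quartile scaling the median of all genes shifted to -0.17 and that of the 39 to -0.92, with 19 lower and 2 higher, and the calls over all genes shifted from 2693 higher and 2919 lower to 1756 higher and 3988 lower. Without control 3 the number that fell was 8 and the median of those tested was -0.40. The calls over all genes dropped there too, to 1586 higher and 1714 lower, with a median of -0.02.

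**Figure D1:**
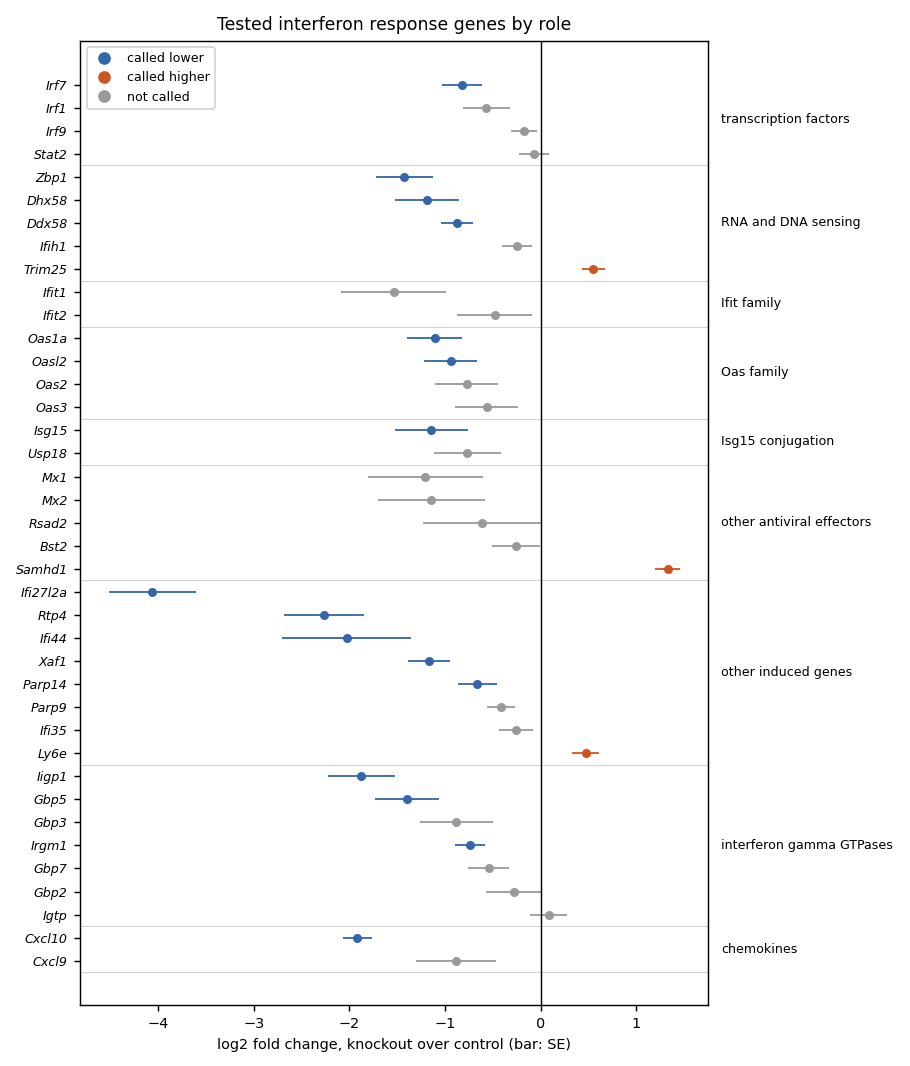
Log2 fold change of knockout over control (horizontal axis, bars are SE) for the 39 tested genes grouped by role. Blue points fell (16), orange points rose (3) and grey points were not called (20); Ifi27l2a lies farthest to the left at -4.06 and Samhd1 farthest to the right at 1.33.

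In bulk samples fewer cells of a type and less RNA per cell cannot be told apart. Markers of several cell types differed between the groups along with the interferon response genes, those of T cells among them. The counts of called markers stand against 18.8% of all genes tested that fell and 17.4% that rose. Of 12 T cell markers tested 10 fell, and their summed level was 169 to 334 CPM in controls and 75.8 to 93.4 CPM in knockouts, with none of them at 0. Among NK cell markers 4 of 5 tested fell, with sums of 24.1 to 66.3 and 11.8 to 17.5 CPM. The NK cell markers Ncr1, Klra8 and Eomes did not exceed 0.511 CPM in any library. Of 8 macrophage and monocyte markers tested 3 rose. Their sums overlapped between groups (27.97 to 61.1 CPM in controls and 39.8 to 60.9 CPM in knockouts). Langerhans and dendritic cell sums also overlapped, at 299 to 386 and 254 to 370 CPM, with 1 of 6 tested lower. Of 3 tested markers of plasmacytoid dendritic cells, the classic makers of type I interferon, 1 rose (Ccr9), and the sums overlapped at 45.95 to 61.4 CPM in controls and 51.4 to 62.0 CPM in knockouts. Most of that sum was Tcf4, which other cells also express, and the more specific Siglech did not exceed 0.327 CPM in any library. Hair shaft and sheath markers (9 of 9 tested lower, sums of 70.3 to 254 CPM in controls and 4.72 to 6.88 CPM in knockouts) and melanocyte markers (5 of 6 lower, 51.2 to 183 and 11.4 to 23.2 CPM) also fell. Of 7 fibroblast markers 3 fell (Dcn, Lum and Dpt), with overlapping sums of 29.8 to 95.8 and 35.7 to 46.6 CPM. Keratinocyte markers had sums of 29890 to 35444 CPM in controls and 43465 to 62854 CPM in knockouts, and 3 of 10 rose, namely Krt1, Krt10 and Dsg3. On the neutrophil list Cxcr2 was the 1 marker tested, and it rose by 4.55 on the log2 scale, whereas Ly6g, Elane and Retnlg had no count in any library. The part of these cells, and of the mitochondrial share, in the fall of the interferon response genes was not tested.

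Of the 4 transcription factors of the pathway 1 fell, Irf7, a share not far from the 18.8% of all genes tested. Irf7 (chromosome 7, 141262706 to 141266481), the factor that amplifies type I interferon production, was measured at 17.1, 16.2 and 24.0 CPM in controls 1, 2 and 3 and at 10.8, 13.1 and 8.60 CPM in knockouts 1, 2 and 3. Every knockout lay below every control. It fell with a log2 fold change of -0.82 (SE 0.21, adjusted p = 0.0207), a call lost without control 3 (0.0687) or knockout 1 (0.0663). Irf1, which responds to interferon gamma, stood at 74.7, 76.3 and 64.2 CPM in controls and 29.4, 56.3 and 59.3 CPM in knockouts. All knockouts lay below the controls, knockout 1 farthest, and Irf1 was not called (-0.57, SE 0.25, adjusted p = 0.106). The subunits of the ISRE-binding complex overlapped between groups. Irf9 ranged over 81.1 to 113 CPM in controls and 81.7 to 92.6 CPM in knockouts (-0.17, SE 0.14, adjusted p = 0.353). Stat2 ranged over 57.7 to 79.3 and 54.5 to 67.3 CPM (-0.07, SE 0.15, adjusted p = 0.745).

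Of the 5 nucleic acid sensing genes 3 fell and 1 rose, against 18.8% and 17.4% of all genes tested. Ddx58, which encodes the RNA sensor RIG-I, was measured at 23.9, 29.3 and 36.4 CPM in controls and at 17.7, 16.1 and 15.1 CPM in knockouts. The groups stood apart (-0.88, SE 0.17, adjusted p = 0.00782). Dhx58, encoding the related helicase LGP2, had 6.20, 5.96 and 11.0 CPM in controls and 4.74, 2.51 and 2.98 CPM in knockouts. It fell by 1.19 on the log2 scale (SE 0.34, adjusted p = 0.0279), but was not called with sex as a covariate or without control 3, knockout 2 or knockout 3 (0.0550 to 0.0885). Zbp1, a sensor of Z-form nucleic acids that can start necroptosis, had 7.02, 3.81 and 6.80 CPM in controls and 2.66, 1.95 and 1.96 CPM in knockouts. Its lowest control was above its highest knockout (-1.43, SE 0.30, adjusted p = 0.00981). Ifih1, the sensor MDA5, ranged over 42.2 to 53.9 and 32.9 to 46.7 CPM with overlap (-0.25, SE 0.16, adjusted p = 0.239). Trim25, the ubiquitin ligase that activates RIG-I, went the other way. It had 50.8, 46.9 and 57.4 CPM in controls and 83.2, 74.8 and 69.5 CPM in knockouts, all of them above the controls (0.55, SE 0.12, adjusted p = 0.0121).

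The Ifit genes, whose proteins bind foreign RNA ends, had few counts except for Ifit1, and of the 2 tested none was called. An unadjusted p under 0.05 was found for 1 of them, Ifit1, which DESeq2 and limma-voom each called. They lie together on chromosome 19, from 34550694 to 34650009. Ifit1 had 5.30, 6.10 and 10.9 CPM in controls and 4.48, 0.838 and 2.43 CPM in knockouts. The knockouts lay below the controls and differed widely among themselves, and the difference missed the threshold (-1.54, SE 0.55, adjusted p = 0.0615). The alternatives that called it were upper-quartile factors (0.0455), DESeq2 (0.0133), limma-voom (0.0367) and leaving out knockout 1 (0.0346). Ifit2 ranged over 1.10 to 2.40 and 0.799 to 1.396 CPM (-0.48, SE 0.39, adjusted p = 0.355). Ifit3 and Ifit3b had too few counts to be tested. Ifit3 had 7, 15 and 50 counts in controls against 1, 0 and 7 in knockouts. Ifit3b had 6, 11 and 17 counts against 3, 1 and 5. These 2 genes are close copies, since 31.7% of the 100-base windows of Ifit3 transcripts occur in Ifit3b, so the split of counts between them is uncertain.

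The Oas genes encode sensors of double-stranded RNA that switch on RNase L, and the Oasl genes encode relatives of them. Oas1a, Oas2 and Oas3 lie together on chromosome 5, from 120730333 to 120907521. Oas1a had 12.4, 10.6 and 20.95 CPM in controls and 7.40, 5.13 and 7.88 CPM in knockouts, without overlap. It fell with a log2 fold change of -1.11 (SE 0.29, adjusted p = 0.0215), a call lost without control 3 (0.0574), knockout 1 (0.0566) or knockout 2 (0.0639). Of its 100-base windows 40.9% also occur in Oas1g, so reads may be split between these copies. Oasl2 had 23.6, 20.6 and 39.0 CPM in controls and 18.7, 12.5 and 12.3 CPM in knockouts (-0.94, SE 0.27, adjusted p = 0.0312). Knockout 1 came close to the lowest control, and the call was lost in 5 of 15 alternatives (0.0521 to 0.0951), among them the fits without control 3, knockout 2 or knockout 3. Oas2 had 7.75, 5.53 and 12.4 CPM in controls and 4.19, 4.19 and 6.64 CPM in knockouts, with knockout 3 above control 2 (-0.77, SE 0.33, adjusted p = 0.0998). It was called without control 2 (0.0467). Oas3 ranged over 4.52 to 11.1 and 4.398 to 5.79 CPM (-0.56, SE 0.33, adjusted p = 0.209). Oasl1 was not tested, with 0, 4 and 8 counts in controls against 4, 0 and 8 in knockouts.

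Isg15, a ubiquitin-like protein attached to other proteins during the response, had 18.3, 11.9 and 24.5 CPM in controls and 12.1, 4.54 and 8.24 CPM in knockouts. Knockout 1 lay above control 2, so the groups overlapped. The gene was just past the threshold (-1.14, SE 0.38, adjusted p = 0.0481), and the call was lost in 6 of 15 alternatives (0.0667 to 0.145), which included leaving out control 1, control 3, knockout 2 or knockout 3. Usp18, which removes Isg15 from proteins and restrains the type I receptor, ranged over 12.4 to 26.4 and 6.57 to 14.3 CPM (-0.77, SE 0.35, adjusted p = 0.123). It was called with sex as a covariate (0.00625).

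Among the 5 other antiviral effectors 1 gene, Samhd1, rose, a share near the 17.4% of all genes tested. None of the 5 fell by edgeR, and none was lower at an unadjusted p under 0.05 or by DESeq2 or limma-voom. Samhd1 (chromosome 2, 157097533 to 157135265), which depletes the nucleotides needed for reverse transcription, had 40.2, 35.9 and 42.3 CPM in controls and 109, 86.0 and 103 CPM in knockouts. The lowest knockout lay far above the highest control, and the log2 fold change was 1.33 (SE 0.13, adjusted p = 0.00109), 2.51-fold higher in knockouts. Mx1 and Mx2 encode dynamin-like GTPases, and both genes are known to be defective in many laboratory mouse strains, Mx2 being annotated as a polymorphic pseudogene. Their levels set control 3 apart, with Mx1 at 2.71, 3.48 and 11.1 CPM in controls 1, 2 and 3 and 1.19 to 3.59 CPM in knockouts. Mx2 had 3.45, 2.76 and 10.8 CPM in controls and 1.75 to 3.88 CPM in knockouts. Neither was called (-1.20, SE 0.60, adjusted p = 0.150 and -1.14, SE 0.56, adjusted p = 0.142). Rsad2, encoding viperin, ranged over 0.476 to 2.32 and 0.419 to 1.44 CPM (-0.61, SE 0.62, adjusted p = 0.459). Bst2, encoding tetherin, which holds budding virus at the cell surface, ranged over 9.91 to 18.4 and 9.74 to 14.6 CPM (-0.26, SE 0.25, adjusted p = 0.450).

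The most marked difference of the 42 genes was that of Ifi27l2a (ENSMUSG00000079017, chromosome 12, 103442167 to 103443680), a small interferon-induced membrane protein. It had 71.3, 43.1 and 128 CPM in controls and 6.47, 3.18 and 4.94 CPM in knockouts. The controls differed widely among themselves, and the lowest of them lay far above the highest knockout (-4.06, SE 0.46, adjusted p = 0.00187). Rtp4, a chaperone of receptors induced by interferon, had 12.7, 8.62 and 20.2 CPM in controls and 4.19, 1.57 and 2.94 CPM in knockouts (-2.26, SE 0.42, adjusted p = 0.00723). Xaf1, an antagonist of the apoptosis inhibitor XIAP, had 18.9, 13.1 and 21.6 CPM in controls and 9.51, 6.88 and 7.51 CPM in knockouts (-1.17, SE 0.22, adjusted p = 0.00735). In Rtp4 and Xaf1, as in Ifi27l2a, control 3 was highest, control 2 the lowest control and knockout 2 the lowest of all.

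Ifi44 was scarce, with 2.11, 2.00 and 5.58 CPM in controls and 1.48, 0.209 and 0.726 CPM in knockouts. It fell with a log2 fold change of -2.03 (SE 0.67, adjusted p = 0.0481), and 7 of 15 alternatives lost the call (0.0547 to 0.156), among them the fits without each control, without knockout 2 and without knockout 3. Parp14, an ADP-ribosyltransferase, had 42.8, 33.5 and 54.4 CPM in controls and 28.7, 31.5 and 22.5 CPM in knockouts (-0.66, SE 0.20, adjusted p = 0.0352). This call was lost in 5 of 15 alternatives (0.0726 to 0.107), among them those without control 1, control 3, knockout 1 or knockout 3. Its neighbour and partner Parp9 had 57.2, 46.0 and 59.5 CPM in controls and 46.0, 34.7 and 41.3 CPM in knockouts. Only knockout 1 and control 2 overlapped, and Parp9 was not called (-0.42, SE 0.15, adjusted p = 0.0593), although it was without control 2 (0.0366) and with upper-quartile factors (0.0234). Ifi35 ranged over 34.5 to 39.4 and 23.2 to 37.8 CPM (-0.26, SE 0.18, adjusted p = 0.281). Ly6e, a surface protein that restricts coronavirus entry, rose from 262, 241 and 249 CPM in controls to 347, 392 and 305 CPM in knockouts. The knockouts lay above all controls (0.47, SE 0.14, adjusted p = 0.0329), but 8 of 15 alternatives lost the call (0.0548 to 0.102), among them upper-quartile factors and the fits without any 1 library other than knockout 3.

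**Figure D2:**
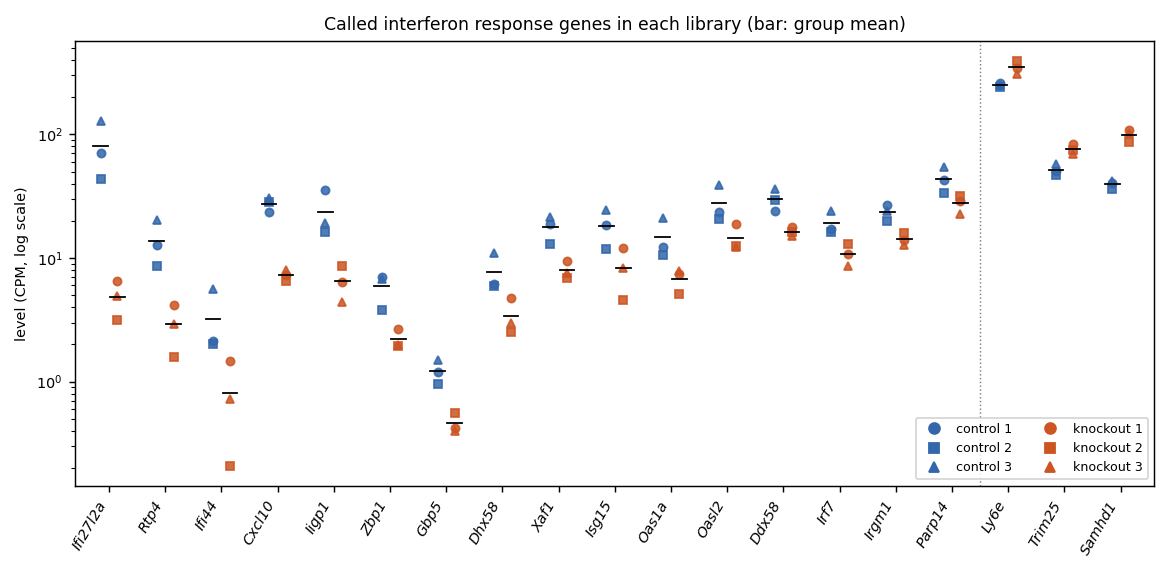
Level in CPM (vertical log axis) of the 19 genes that fell or rose, ordered by fold change, with 1 marker per library and a bar at each group mean. Left of the dotted line the orange knockouts lie below the blue controls in every gene except Isg15, where knockout 1 lies above control 2; the 3 genes to its right are higher in every knockout.

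The GTPases induced by interferon gamma attack membranes around intracellular pathogens, and 3 of 7 fell, against 18.8% of all genes tested. Iigp1 had 35.7, 16.2 and 19.3 CPM in controls and 6.39, 8.59 and 4.43 CPM in knockouts (-1.88, SE 0.35, adjusted p = 0.00735). Irgm1, a regulator of the other immunity-related GTPases, had 27.0, 20.01 and 23.9 CPM in controls and 14.0, 15.9 and 12.7 CPM in knockouts (-0.74, SE 0.16, adjusted p = 0.0104). In both genes control 1 was highest, and no knockout reached a control. Igtp, another immunity-related GTPase, overlapped fully, at 23.3 to 27.3 and 20.3 to 34.6 CPM. Its log2 fold change was 0.08 (SE 0.19, adjusted p = 0.753), and with upper-quartile factors it was -0.07.

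The 4 guanylate-binding protein genes lie side by side on chromosome 3, from 142493978 to 142638008, and all had negative log2 fold changes. Gbp5, which aids inflammasome assembly, had 1.21, 0.953 and 1.49 CPM in controls and 0.423, 0.558 and 0.399 CPM in knockouts. It fell with a log2 fold change of -1.39 (SE 0.33, adjusted p = 0.0161), a call lost without control 3 (0.0638) or knockout 1 (0.0584). Gbp3 had 2.71, 2.53 and 6.01 CPM in controls and 2.16, 1.64 and 2.32 CPM in knockouts (-0.88, SE 0.38, adjusted p = 0.103). Gbp7 had 11.0, 9.53 and 15.7 CPM in controls and 8.75, 8.83 and 7.30 CPM in knockouts (-0.54, SE 0.21, adjusted p = 0.0798), and it was called with upper-quartile factors (0.0392) and without control 2 (0.0488). In these 3 genes all knockouts lay below all controls, as they did in 26.5% of all genes tested. Gbp2, the member of this cluster with the highest level, ranged over 32.4 to 51.4 and 24.1 to 51.1 CPM (-0.28, SE 0.29, adjusted p = 0.466).

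Cxcl9 and Cxcl10 encode chemokines that draw T cells through the receptor Cxcr3 and lie side by side on chromosome 5, from 92321347 to 92348889. Cxcl10 had 23.7, 28.1 and 30.7 CPM in controls and 7.32, 6.49 and 8.06 CPM in knockouts. Both groups were tight, and Cxcl10 had the smallest adjusted p of the 42 genes (-1.92, SE 0.16, adjusted p = 0.000644), 3.78-fold higher in controls. Its promoter stretch holds 1 ISRE match. Cxcl9 had 13.01, 14.1 and 37.2 CPM in controls and 14.7, 8.62 and 11.5 CPM in knockouts. Controls 1 and 2 lay among the knockouts and control 3 far above, and Cxcl9 was not called (-0.89, SE 0.42, adjusted p = 0.132). Exons of Cxcl10, Irf7 and Parp9 overlap exons of Art3, Phrf1 and Dtx3l on the opposite strand, and whether the counting used strand is not given in the sources used here, so reads of these pairs may be mixed.

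Levels can be compared between genes only per length of exon. On that scale, in CPM per kb of annotated exon, Ifi27l2a was the highest of the 42 in controls, at 175 ± 93.5 (SD, n = 3), followed by Ly6e at 66.2 ± 2.79. In knockouts Ly6e was highest at 92.0 ± 11.4, and Ifi27l2a took rank 12 at 10.5 ± 3.56. Isg15 (24.1 ± 8.35), Ifi35 (21.2 ± 1.46), Irf1 (18.0 ± 1.65), Irf9 (18.0 ± 2.92) and Gbp2 (16.9 ± 3.81) came next in controls. Isg15 and Ifi35 did not differ beyond their SD, nor did Irf1, Irf9 and Gbp2. Cxcl10 moved from rank 10 to rank 18, at 12.2 ± 1.57 in controls and 3.24 ± 0.348 in knockouts. Samhd1 moved from rank 22 to rank 10, at 4.31 ± 0.353 and 10.8 ± 1.29. The lowest ranks in controls belonged to Gbp5 and Oasl1, at 0.183 ± 0.0408 and 0.0646 ± 0.0607.

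**Figure D3:**
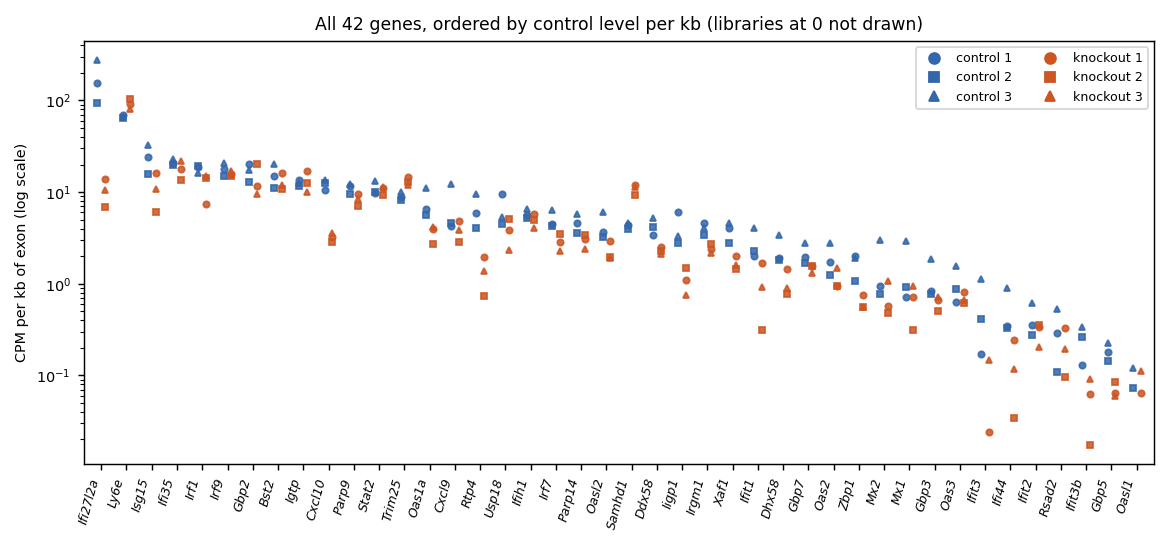
CPM per kb of exon (vertical log axis) of all 42 genes in each library, ordered by the control mean; libraries with 0 counts are not drawn. Ifi27l2a leads in controls at 175 on average and lies at 10.5 in knockouts, while Ly6e is at 66.2 and 92.0.

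The controls were not alike in these genes. Control 3 was the highest control in 31 of the 39 tested genes and control 2 the lowest in 31, against 30.7% and 33.0% of all genes tested. The ratio of control 3 to the mean of controls 1 and 2 had a median of 1.43 and a range of 0.745 to 3.58, and exceeded 1.5 in 18 genes. It was 3.58 for Mx1, 3.47 for Mx2, 2.75 for Cxcl9 and 2.72 for Ifi44, in each of which control 3 was the highest library of all. Iigp1 (0.745) and Usp18 (0.772) stood at the other end, with control 1 highest. Among knockouts, knockout 1 was the highest in 19 of the 39 and knockout 2 the lowest in 22, against 33.9% and 34.7% of all genes tested. The mitochondrial share of counts was 4.87%, 7.24% and 9.96% in controls 1, 2 and 3. Among knockouts this share was highest in knockout 3 (4.32%). Among controls, the marker sums of T cells, NK cells, macrophages and monocytes, and Langerhans and dendritic cells were highest in control 1. Those of keratinocytes, plasmacytoid dendritic cells, and hair shaft and sheath were highest in control 2. Melanocyte sums were 51.2, 138 and 183 CPM and fibroblast sums 29.8, 62.2 and 95.8 CPM in controls 1, 2 and 3. The scarce neutrophil list was also highest in control 3. The part of the mitochondrial share or of these cell types in these levels was not tested. Without control 3, Cxcl10, Ifi27l2a, Rtp4, Iigp1, Xaf1, Zbp1, Ddx58 and Irgm1 still fell.

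**Figure D4:**
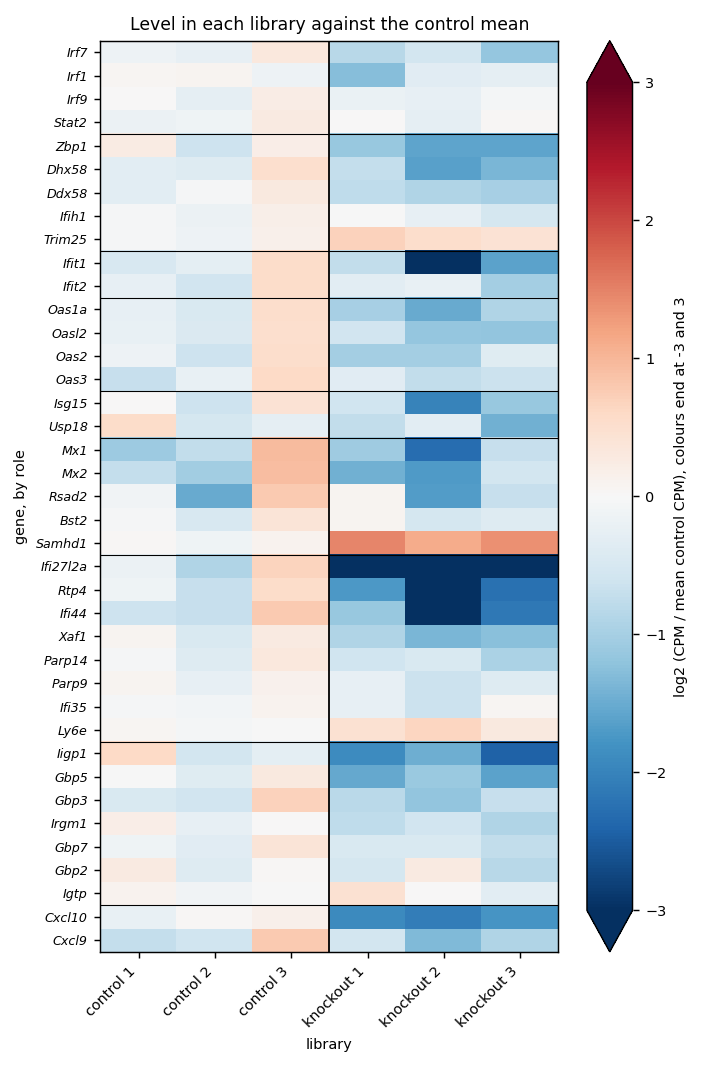
Level of each of the 39 tested genes in each library as log2 of CPM over the mean control CPM (colour scale), with genes in rows by role and libraries in columns. The control 3 column is redder than its neighbours in most rows, and the row of Ifi27l2a is at the blue end in all 3 knockouts, while Samhd1, Trim25 and Ly6e are red there.

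Of the 17 interferon ligand genes looked at, 12 had no count in any library, among them Ifnb1, 10 Ifna genes and Ifne. Ifng, the gene of interferon gamma, had 104, 22 and 75 counts (4.48, 1.05 and 2.95 CPM) in controls 1, 2 and 3. In knockouts 1, 2 and 3 it had 8, 16 and 36 counts (0.338, 0.558 and 1.31 CPM). Knockout 3 lay above control 2. Ifng fell with a log2 fold change of -1.93 (SE 0.63, adjusted p = 0.0448), and 8 of 15 alternatives lost the call (0.0549 to 0.141), including those without control 1, control 3, knockout 1 or knockout 2. Ifnk, the type I interferon of keratinocytes, had 1, 13 and 0 counts in controls and none in knockouts. Ifnab, Ifnl2 and Ifnl3 had 1 count each over all libraries. The T cell marker sums were ordered like Ifng among controls, with 334, 169 and 270 CPM in controls 1, 2 and 3, and their part in the level of Ifng was not tested.

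**Figure D5:**
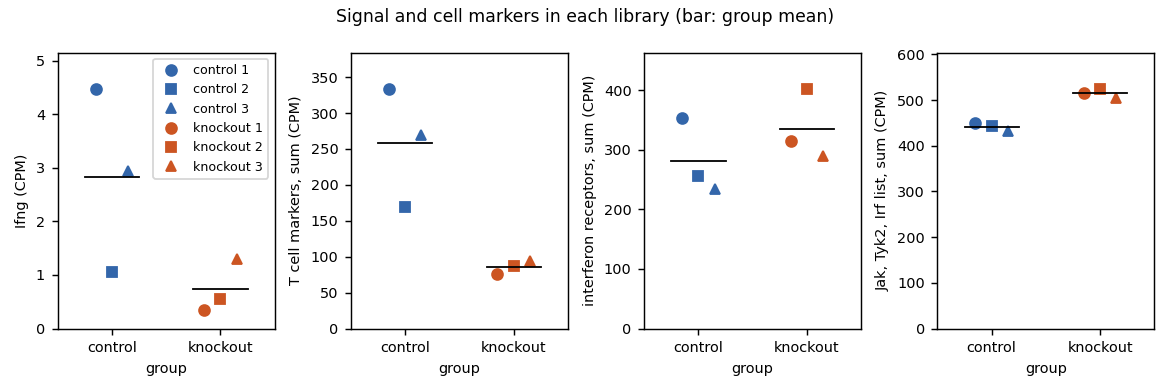
Ifng, the summed T cell markers, the summed interferon receptors and the summed list of Jak1, Jak2, Tyk2, Irf2, Irf3, Irf5 and Irf8 in each library, in CPM from 0, with a bar at each group mean. T cell marker sums of all 3 knockouts (75.8 to 93.4 CPM) lie below the controls (169 to 334 CPM), receptor sums overlap, and the sums of the Jak, Tyk2 and Irf list are 504.7 to 525 CPM in knockouts and 433 to 450.3 CPM in controls.

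The receptors and transducers of the signal were mostly not called, as were 9901 of all 15513 genes tested. Of the 6 receptor genes 1 rose, a share near the 17.4% of all genes tested. None fell by edgeR, DESeq2 or limma-voom, with 1 lower at an unadjusted p under 0.05. The gene that rose was Il10rb, a subunit shared by the receptors of interleukin 10 and interferon lambda, with 8.61, 6.72 and 7.11 CPM in controls and 18.9, 20.3 and 12.99 CPM in knockouts (1.22, SE 0.20, adjusted p = 0.00496). None of the 7 transducer genes looked at was called by edgeR or limma-voom, with 2 higher at an unadjusted p under 0.05 and 1 called higher by DESeq2. Jak1 came closest, at 199.8 to 218 CPM in controls and 249 to 282 CPM in knockouts (0.34, SE 0.12, adjusted p = 0.0608), and was called with DESeq2 (0.0113).

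Sensors and adaptors outside the 42 genes were called in both directions, with 2 of 15 tested higher and 3 lower, shares near those of all genes tested (17.4% and 18.8%). Tlr3, the endosomal receptor of double-stranded RNA, had 14.8, 16.0 and 17.4 CPM in controls and 9.35, 8.38 and 6.13 CPM in knockouts (-1.01, SE 0.19, adjusted p = 0.00663). Tmem173, encoding STING, fell from 2.97, 2.38 and 3.22 to 1.65, 1.152 and 1.31 CPM (-1.07, SE 0.27, adjusted p = 0.0194). Tmem173 was not called when control 1 (0.0509), control 3 (0.0678) or knockout 2 (0.0693) was left out. Nod1, a sensor of bacterial peptidoglycan, rose by 0.55 on the log2 scale (SE 0.13, adjusted p = 0.0142), a call lost without control 3 (0.0545). Of 10 negative regulators 2 rose, again near the 17.4% of all genes tested, and 4 fell, against 18.8%. The phosphatase gene Ptpn11 had 82.7 to 98.2 CPM in controls and 154 to 162 CPM in knockouts (0.80, SE 0.11, adjusted p = 0.00262). Ptpn2, encoding a phosphatase that acts on Janus kinases, had 45.8 to 51.8 and 33.7 to 34.0 CPM (-0.51, SE 0.10, adjusted p = 0.00823). Nlrc3, a dampener of STING signalling that T cells also express, had 4.38 to 8.06 and 1.86 to 2.98 CPM (-1.47, SE 0.30, adjusted p = 0.00921).

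A list of 70 other interferon-induced genes, none of them among the 42, also held more genes that fell than rose. Like the 42, it was chosen with earlier results of these data known. It is not independent of the 42, since its genes Oas1g, Dtx3l and Irgm2 share transcript sequence with Oas1a, Parp9 and Igtp. Of 62 tested, 30 fell, 1 rose and 31 were not called, with a median log2 fold change of -0.72. Over all genes tested 18.8% fell and 17.4% rose. All knockouts lay below all controls in 32 of the 62, against 26.5% of all genes tested. Sp100, a nuclear body protein, had 33.4, 25.7 and 37.6 CPM in controls and 12.1, 13.6 and 10.8 CPM in knockouts (-1.41, SE 0.17, adjusted p = 0.00188). Psmb10, an immunoproteasome subunit, had 33.1, 24.97 and 29.0 CPM against 12.6, 9.35 and 13.2 CPM (-1.31, SE 0.17, adjusted p = 0.00245). Uba7, the enzyme that activates Isg15 for conjugation, had 17.7, 14.4 and 18.9 CPM against 6.60, 7.47 and 8.06 CPM (-1.20, SE 0.16, adjusted p = 0.00262). In these 3 genes the groups were clearly apart. The summed level of the 70 genes overlapped between groups, at 7273 to 8368 CPM in controls and 6710 to 7848 CPM in knockouts. Much of that sum came from abundant genes that were not called, among them B2m and H2-K1, whose levels are given below.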

How the data were processed

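Messenger RNA was measured in keratinocytes of 3 control and 3 Lama3 knockout mice, named by their sample titles. The values are whole-number counts per Ensembl gene as deposited by the authors in 1 table. Per the submitters' processing notes, the tools were Cuffdiff 1.3.0, featureCounts 1.4.6 and TopHat 1.3.3 and the genome GRCm38, and the labels give paired reads of 100 bases. Annotation release, strand setting and treatment of reads that match several places are not given in the sources used here. Symbols came from GENCODE M21 (44671 of 45513 identifiers, 98.1%), and identifiers without one stayed in the fit.

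Counts were tested with edgeR 4.0.16 under R 4.3.3, using TMM factors, filterByExpr, robust quasi-likelihood fits on the group alone, and Benjamini-Hochberg adjustment over all 15513 genes tested (of 25742 with any count). Genes with an adjusted p under 0.05 are said to have risen or fallen. Levels are CPM scaled by library size and TMM factor. The precision of low values is set by their counts at 20126395 to 28473479 counts per library. The fit was tested on simulated data. No library of a group was a copy of another. The labels do not say that the replicate numbers pair the mice, so the main fit did not pair them. Not every same-numbered pair deviated together, which with 3 libraries a group cannot settle whether the mice were paired.

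Alternatives were DESeq2 size factors, upper-quartile factors, no filter, at least 1 CPM in 3 libraries, limma-voom (limma 3.58.1), DESeq2 1.42.0, no robust estimation, a replicate block, sex as a covariate (read from Xist and Ddx3y), each library left out, and an adjusted p under 0.01. The 42 genes and the lists were chosen with earlier results of these data known. By rule, called genes and the 6 uncalled genes with the smallest p are given per library, and from each pathway list the 3 called genes with the smallest p, or else the 1 gene with the smallest p. One listed marker, Krt85, had no identifier and was not used here, and 1 listed transducer gene is not reported here.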

Additional observations from a re-analysis of the deposited data

How the results depend on the processing

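Of the 19 called genes, 10 kept their call in each of the 15 alternatives that keep the threshold, namely Cxcl10, Ifi27l2a, Rtp4, Iigp1, Xaf1, Zbp1, Ddx58, Irgm1, Samhd1 and Trim25, and none of the 19 changed sign. With 1 library left out, the number of the 42 genes that fell was 8 to 18 (8 without control 3) and the number that rose 2 to 3. Over all genes, 1586 (without control 3) to 2754 rose and 1714 (without control 3) to 2771 fell, with 1681 and 1735 without knockout 1 and 1750 lower without knockout 2. Upper-quartile factors gave 1756 higher genes. At an adjusted p under 0.01, 1115 genes rose and 1009 fell, as did 1 and 7 of the 42 and 16 of the other interferon-induced genes lower. Fewer calls follow there from the stricter threshold, and elsewhere the cause was not tested.

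With the replicate number as a block, which the labels do not say pairs the mice, 17 of the 42 genes fell and 2 rose. The block called Oas2 (0.0401), Mx2 (0.0379) and Parp9 (0.0305) and did not call Oasl2 (0.0521), Parp14 (0.0860) and Ly6e (0.0548). Same-numbered deviations correlated at -0.11, -0.10 and 0.42, and only control 3 and knockout 3 correlated best with their own number. Some uncalled genes changed sign, most of them near 0, and Rsad2 moved from -0.61 to 0.0317 when control 3 was left out. With upper-quartile factors the log2 fold change was -0.0675 for Igtp, -0.0791 for Tap1, -0.0548 for Tap2, -0.0744 for H2-K1 and -0.0002 for H2-D1. With sex as a covariate it was -0.0598 for Igtp, -0.0344 for Tap1 and 0.0057 for Stat2. Without control 3 it was 0.0881 for Stat2. Without knockout 1 it was -0.1307 for Igtp, and without knockout 2 it was 0.0281 for Stat2, -0.0052 for Tap1 and -0.0025 for Tap2. Without knockout 3 it was 0.0384 for Tapbp and 0.042 for B2m, without control 1 it was 0.0703 for B2m, and with no filter 0.0037 for B2m.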

Other observations

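Among the other interferon-induced genes, those of antigen processing were called at 1 step and not at another, a pattern picked out after the values were seen. All 5 immunoproteasome and proteasome activator genes on the list fell, against 18.8% of all genes tested. Psmb9 had 145, 99.4 and 133 CPM in controls and 59.2, 53.9 and 66.2 CPM in knockouts (-1.07, SE 0.16, edgeR's adjusted p = 0.00352). Psmb8 (-0.84, SE 0.13), Psmb10 (-1.31, SE 0.17), Psme1 (-0.81, SE 0.14) and Psme2 (-1.26, SE 0.18) fell too, and each of the 5 kept its call in all 15 alternatives that keep the threshold. Tap1, Tap2, Tapbp, H2-K1, H2-D1 and B2m, which act in peptide transport and class I presentation, were not called. Tap1, a subunit of the peptide transporter, ranged over 229 to 263 CPM in controls and 211 to 286 CPM in knockouts (0.07, SE 0.15, edgeR's adjusted p = 0.737). H2-K1, a class I heavy chain, ranged over 1553 to 1817 and 1621 to 1923 CPM (0.07, SE 0.19). B2m, its light chain, ranged over 2027 to 2543 and 1954 to 2422 CPM (-0.04, SE 0.20). Whether the 2 steps differ was not tested.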
